A study of Mus musculus with 20 samples.

Results

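The genes described here are the receptor and accessory genes of the adrenomedullin and calcitonin gene-related peptide (CGRP) pathway, Ramp1, Ramp2, Ramp3 and Calcrl, together with Adm, the gene of adrenomedullin itself. They were taken by symbol from the table of gene counts and make up 5 of its 55866 genes, of which 4 hold counts. Calcrl encodes the calcitonin receptor-like receptor, a G protein-coupled receptor that reaches the cell surface only in a complex with a receptor activity-modifying protein (RAMP). With RAMP1 it forms the CGRP receptor, and with RAMP2 or RAMP3 it forms receptors for adrenomedullin, a peptide that vessels and hypoxic tissue release and that acts on blood and lymphatic endothelium. The receptors couple mainly to the stimulatory G protein and cyclic AMP, and in endothelium they are known for their part in vessel development, barrier function and vasodilation.

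The libraries came from female C57BL/6J RiboTag EC mice, which combine the tagged allele Rpl22HA/HA with Cdh5CreERT2. The Cdh5 promoter drives the inducible Cre in endothelium, so that after tamoxifen (75 mg/kg for 5 days from an age of 3 weeks) endothelial ribosomes carry a hemagglutinin (HA) tag, and immunoprecipitation with anti-HA antibodies (IP) recovers their mRNA. Cells that expressed the Cre during tamoxifen keep the tag, as do their descendants, so that the fraction is endothelial by promoter at that age and by lineage. All animals carried Py8119 tumors, a murine mammary carcinoma line placed in the mammary fat pad at 8 weeks. Treatment began at a tumor volume given as 30 mm3 in the protocol and as 50 mm3 in the series design. Control mouse IgG or 25 mg/kg of 6-3-A6, a murine antibody that blocks Notch4, was given at 2 doses a week, and tumors were collected after 10 days. Each of 10 tumors, 5 per treatment group, gave a library of the whole homogenate (input) and an IP library, which makes 20 libraries of 11881214 to 26728205 counts on genes. For the 6-3-A6 libraries 1 label line names the opposite fraction from the title. The titles were followed, and the summed level of 18 endothelial markers was 217.7 to 324 counts per 1e6 counts (CPM) in the libraries titled 6-3-A6 input and 1295 to 6491 CPM in those titled 6-3-A6 IP. The study kept 6 IP libraries for its comparison (replicates 2, 4 and 5 of control IgG IP, replicates 1, 3 and 4 of 6-3-A6 IP) and left out the other 4 as outliers of a principal component analysis.

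Adm was not measured. It holds 0 counts in all 20 libraries, and its 2160 bases (chromosome 7, 110226868 to 110229027, plus strand, GRCm39) lie wholly within the antisense gene Gm28863, which holds 50 counts over all libraries. The counts were made over whole gene spans, introns included, and each of the 12587 genes enclosed by another gene holds 0 counts, as do 38.5% of the 30493 genes without any overlap. The 0 therefore sets no upper limit on the level of adrenomedullin mRNA. Ramp2 (chromosome 11, 101136854 to 101150372, plus strand) is listed with a span of 13519 bases that also covers 99.9% of Vps25, a neighbor on the same strand with 0 counts, so that the 29385 counts on Ramp2 come from its other 7679 bases. Ramp3 (chromosome 11, 6608521 to 6627475, plus strand, 8153 counts) shares 9.04% of its span with the antisense gene Gm11978, which holds 10 counts. Its other 17242 bases overlap no gene. Whether strand was used in the counting is not given in the sources used here, but enclosed genes hold 0 counts whichever strand the enclosing gene is on. Calcrl (chromosome 2, 84160970 to 84255755, minus strand, 27462 counts) and Ramp1 (chromosome 1, 91107544 to 91152918, plus strand, 787 counts) overlap no other gene.

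The 250 bases before the start of Ramp3, Calcrl and Ramp1 are shown because the first of these genes followed the endothelial marker level of the IP libraries most steeply, Calcrl less so and Ramp1 not detectably. They are RefSeq sequences on GRCm38.p6, a different build from that of the count table, and are written 5′ to 3′ on the strand of the gene. Capitals mark the GC box GGGCGG and AGGAAG, 1 form of the ETS-type core GGAA with its flanks, on either strand (CCGCCC and CTTCCT). Such letters are read by factors such as Sp1 and by ETS factors.
Ramp3, chr11:6658283-6658532, plus strand: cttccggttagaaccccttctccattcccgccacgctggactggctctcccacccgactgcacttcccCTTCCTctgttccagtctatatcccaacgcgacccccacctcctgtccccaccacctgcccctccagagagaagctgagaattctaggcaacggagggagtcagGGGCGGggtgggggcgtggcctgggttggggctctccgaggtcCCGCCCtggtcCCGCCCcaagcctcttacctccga
Calcrl, chr2:84425267-84425516, minus strand: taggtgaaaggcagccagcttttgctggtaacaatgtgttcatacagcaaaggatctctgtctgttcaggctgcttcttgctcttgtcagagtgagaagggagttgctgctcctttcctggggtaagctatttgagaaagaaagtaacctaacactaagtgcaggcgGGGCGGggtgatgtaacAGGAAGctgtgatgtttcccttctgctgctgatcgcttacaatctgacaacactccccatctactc
Ramp1, chr1:91179572-91179821, plus strand: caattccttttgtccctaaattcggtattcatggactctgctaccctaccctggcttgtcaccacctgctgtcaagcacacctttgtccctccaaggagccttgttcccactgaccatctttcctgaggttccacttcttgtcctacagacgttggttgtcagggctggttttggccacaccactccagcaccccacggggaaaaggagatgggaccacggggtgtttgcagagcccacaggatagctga
The window of Ramp3 holds 3 GC boxes and 1 AGGAAG, that of Calcrl holds 1 of each, and that of Ramp1 holds 0 of either. GGAA with other flanks was not counted, and on either strand it also stands unmarked in each of these windows, that of Ramp1 included. Of 32851 mouse promoter windows of the same length, 32.7% hold a GC box and 29.5% hold AGGAAG, on either strand. The window of Adm (chr7:110627407-110627656, plus strand) holds 1 GC box. Of the 2 forms of the hypoxia response core, searched on either strand, ACGTG (in 16.6% of all windows) is in 0 of the 4 windows, and GCGTG (in 28.2%) occurs 2 times in the window of Ramp3 and 2 times in that of Adm. The table used had no entry for Ramp2. These matches are descriptions of letters and were not tested as binding sites.

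Ramp2 was the most abundant of the 4 genes per kilobase of transcript in endothelial ribosomes and scarce in the homogenate. It was at 6.68, 6.26, 5.71, 3.62 and 3.40 CPM in control IgG input 1 to 5 and at 275, 113.8, 182, 49.7 and 81.8 CPM in control IgG IP 1 to 5. In 6-3-A6 input 1 to 5 it was at 3.91, 3.48, 3.15, 3.24 and 7.06 CPM, and in 6-3-A6 IP 1 to 5 at 193.8, 38.1, 166.7, 230.5 and 158.9 CPM. Every IP library lay above every input library, and control IgG IP 4 and 6-3-A6 IP 2 were the lowest of their IP groups. The means were 5.13 ± 1.52 CPM (SD, n = 5) in control IgG input, 4.17 ± 1.64 in 6-3-A6 input, 140.5 ± 89.8 in control IgG IP and 157.6 ± 72.5 in 6-3-A6 IP.

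Ramp3, the RAMP that with Calcrl makes the other adrenomedullin receptor, varied most between the IP libraries. It was at 4.17, 3.38, 3.41, 2.71 and 2.44 CPM in control IgG input 1 to 5 and at 79.9, 23.3, 46.5, 5.04 and 4.98 CPM in control IgG IP 1 to 5. In 6-3-A6 input 1 to 5 it was at 4.64, 3.10, 5.40, 0.837 and 2.57 CPM, and in 6-3-A6 IP 1 to 5 at 88.2, 7.78, 96.0, 31.6 and 10.2 CPM. In both IP groups some libraries were close to the input level and others far above it. Within each treatment group every IP library lay above every input library. The lowest IP and highest input libraries were at 4.98 and 4.17 CPM in control IgG and at 7.78 and 5.40 CPM in 6-3-A6. Of all genes tested, 12.9% were separated in control IgG and 14.8% in 6-3-A6. Across the groups, 6-3-A6 input 3 (5.40 CPM) exceeded control IgG IP 4 and 5 (5.04 and 4.98 CPM). The coefficient of variation (SD as a share of the mean) was 99.5% in control IgG IP and 90.9% in 6-3-A6 IP, whereas for Ramp2 it was 63.9% and 46.0%.

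Calcrl, the receptor subunit common to all 3 complexes, was present in both fractions. It was at 29.5, 17.9, 54.4, 43.3 and 49.2 CPM in control IgG input 1 to 5 and at 98.3, 122, 173.9, 74.0 and 88.3 CPM in control IgG IP 1 to 5. In 6-3-A6 input 1 to 5 it was at 47.3, 45.3, 25.0, 44.4 and 18.4 CPM, and in 6-3-A6 IP 1 to 5 at 136.5, 47.9, 112.7, 125.5 and 112.2 CPM. Within each treatment group the IP libraries lay above the input libraries, by a small margin for 6-3-A6 IP 2. Of all genes tested, 12.9% were likewise separated in control IgG and 14.8% in 6-3-A6. Across the groups the fractions of Calcrl overlapped, since control IgG input 3 and 5 (54.4 and 49.2 CPM) exceeded 6-3-A6 IP 2 (47.9 CPM). Its IP levels spread less than those of the RAMPs enriched there, with coefficients of variation of 35.1% in control IgG IP and 32.3% in 6-3-A6 IP.

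Ramp1, the RAMP of the CGRP receptor, was scarce everywhere, with 11 to 108 counts per library. It was at 6.01, 3.30, 1.19, 2.54 and 2.44 CPM in control IgG input 1 to 5 and at 3.79, 1.48, 0.604, 2.90 and 1.45 CPM in control IgG IP 1 to 5. In 6-3-A6 input 1 to 5 it was at 3.11, 1.39, 2.25, 2.93 and 5.93 CPM, and in 6-3-A6 IP 1 to 5 at 1.17, 1.09, 1.14, 0.895 and 1.74 CPM. The fractions overlapped in both treatment groups. In the order of the 4 group means, neighboring groups overlapped for every gene except Ramp2, whose control IgG input and control IgG IP libraries did not.

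**Figure D1:**
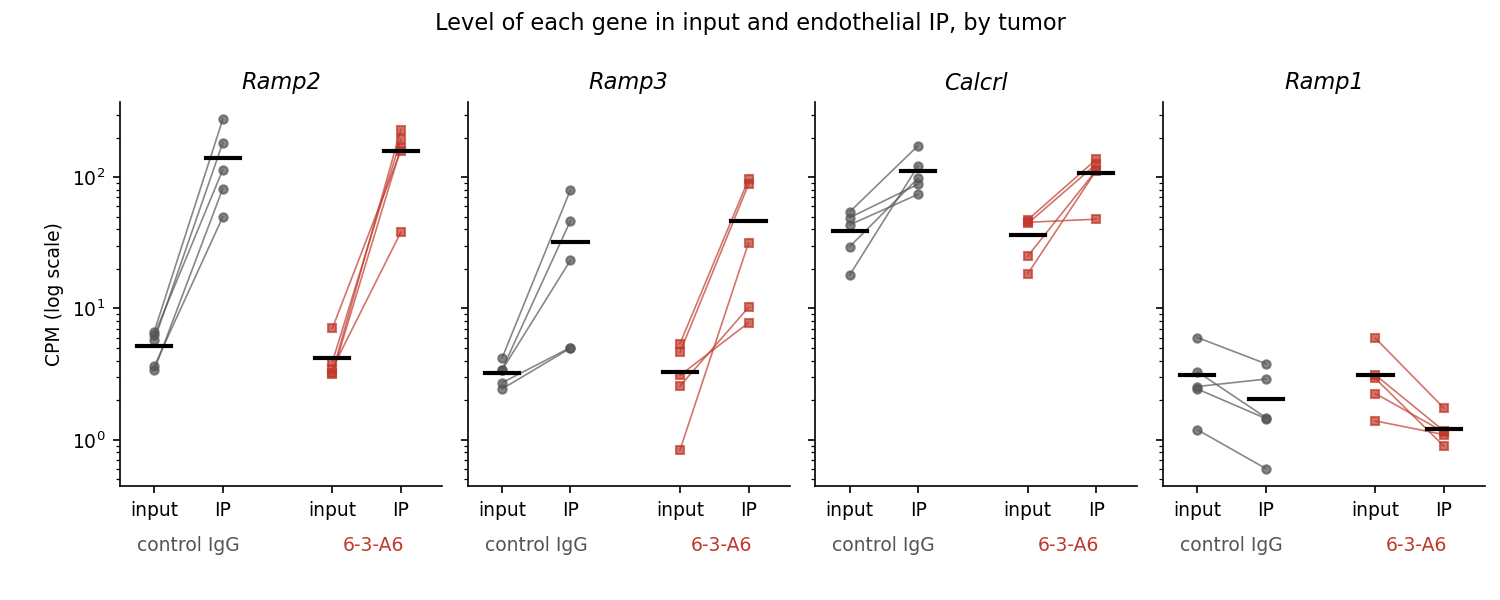
CPM on a log axis of Ramp2, Ramp3, Calcrl and Ramp1 in the input and IP library of each tumor (points, joined by a line per tumor) for control IgG (gray circles) and 6-3-A6 (red squares), with group means as black bars (n = 5 each). Ramp2 rises in every tumor, Ramp3 rises steeply in some tumors and by as little as 1.86-fold in another, Calcrl rises less, and Ramp1 lies lower in IP in 9 of 10 tumors.

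Levels of different genes were compared per length, as CPM per kilobase of the longest GENCODE transcript (1178 bases for Ramp2, 1233 for Ramp3, 4882 for Calcrl and 2325 for Ramp1). On this scale Ramp2 exceeded each of the other 3 genes in 10 of 10 IP libraries. Its mean over the IP libraries was 126.5 ± 65.7 CPM per kilobase (SD, n = 10), and those of Ramp3, Calcrl and Ramp1 were 31.9 ± 29.4, 22.4 ± 7.14 and 0.700 ± 0.423. Ramp3 and Calcrl had no fixed order in IP, since Ramp3 was higher in 4 of 10 libraries per kilobase of transcript and in 5 of 10 per kilobase of gene span. In input Calcrl was at 7.67 ± 2.75 CPM per kilobase (SD, n = 10), Ramp2 at 3.95 ± 1.34, Ramp3 at 2.65 ± 1.04 and Ramp1 at 1.34 ± 0.711, and Ramp2 exceeded Calcrl in 2 of 10 libraries. Counting covered introns, so that a value per transcript length is an approximation in this table.

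The composition of the RAMP counts differed between the fractions, without overlap for the shares of Ramp2 and Ramp1. In IP Ramp2 made up 63.2% to 93.0% of the counts on the 3 RAMP genes (median 81.6%), Ramp3 5.65% to 36.4% (median 16.7%) and Ramp1 0.263% to 5.03% (median 1.04%). In input the shares were 29.2% to 55.4% for Ramp2 (median 42.4%), 11.9% to 50.0% for Ramp3 (median 30.0%) and 11.6% to 41.8% for Ramp1 (median 27.7%). These are shares of counts without a correction for length, to be compared between libraries and not between genes. The 3 genes summed to 772 to 6227 counts in the IP libraries but to only 67 to 303 in the input libraries. In IP the 95% Wilson interval of the highest Ramp3 share, in 6-3-A6 IP 3, was 35.2% to 37.6%. That of the lowest, in control IgG IP 5, was 4.78% to 6.68%. The lowest Ramp3 and highest Ramp1 shares of input came from 6-3-A6 input 4, with 8 and 28 of 67 counts. Their 95% Wilson intervals were 6.18% to 21.8% and 30.7% to 53.7%. These intervals cover counting error only, and reads without molecular identifiers are not independent molecules.

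**Figure D2:**
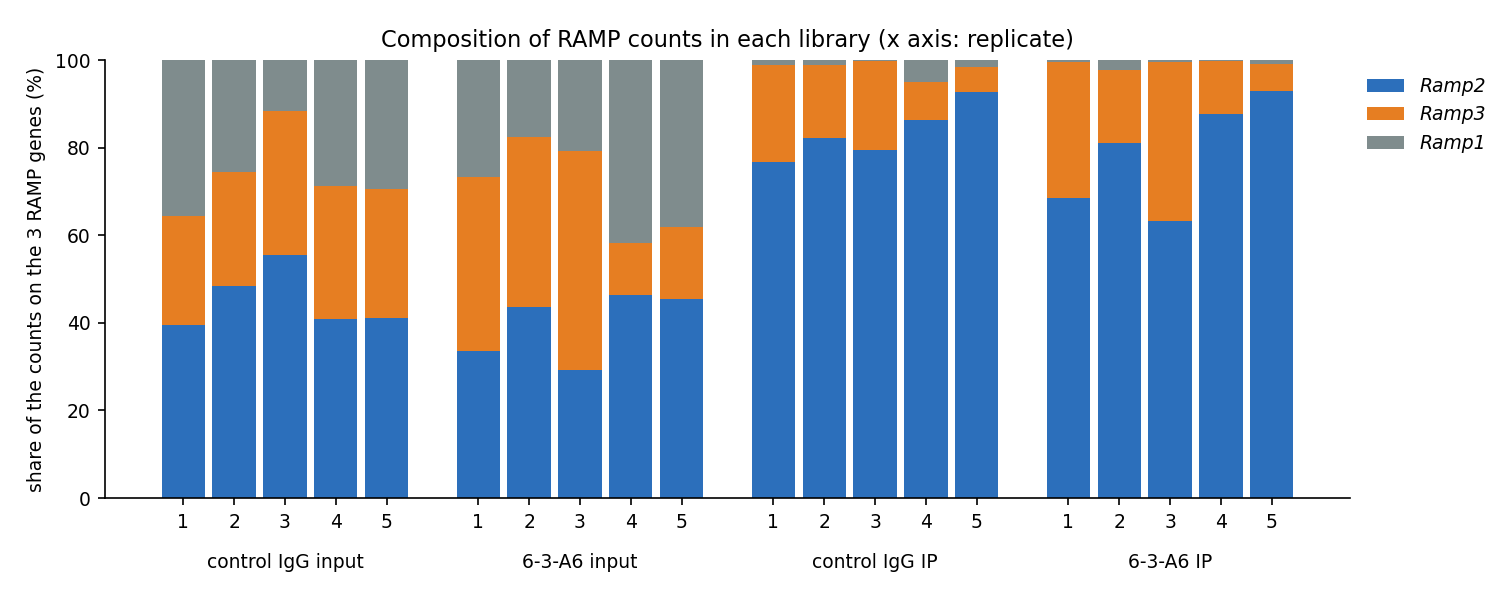
Share (%) of Ramp2 (blue), Ramp3 (orange) and Ramp1 (gray) in the counts on the 3 RAMP genes, one bar per library in the order of the replicates. Ramp2 takes at least 63.2% in each IP library, and Ramp1 shrinks from a median of 27.7% in input to 1.04% in IP.

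IP was compared with input to ask which of these genes endothelial ribosomes hold above the level of the whole tumor. Over both treatment groups Ramp2, Ramp3 and Calcrl were higher and Ramp1 was lower in IP, and all 4 passed an adjusted p of 0.05 (edgeR quasi-likelihood test, Benjamini-Hochberg over 14488 genes, here termed called). Of all genes tested, 40.4% were called, 19.6% higher and 20.8% lower, so that a call alone was common in this comparison and the sizes of the differences say more. In bulk samples such as these, fewer cells of a type and less RNA per cell cannot be told apart.

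Ramp2 was enriched by 5.01 log2 units in IP over input (standard error, SE, 0.35, edgeR adjusted p = 2.48e-10), rank 17 among 14488 genes. In single tumors its IP level was 10.9 to 71.1 times the input level, with a median of 28.0, and it was higher in 10 of 10 tumors. Ramp3 was enriched by 3.55 log2 units (SE 0.54, edgeR adjusted p = 2.31e-05). It was also higher in 10 of 10 tumors, but by 1.86 to 37.7 times, with a median of 10.3. The highest of these values, in 6-3-A6 tumor 4, rested on 8 Ramp3 counts in input, and the next highest was 19.2 times. The same tumor gave the highest value of Ramp2, with 31 Ramp2 counts in input. Calcrl was enriched by 1.54 log2 units (SE 0.23, edgeR adjusted p = 1.97e-05), and single tumors ranged from 1.06 to 6.81 times. Ramp1 fell by 0.98 on the log2 scale (SE 0.33, edgeR adjusted p = 0.0232) and was lower in IP in 9 of 10 tumors. The call on Ramp1 was lost without control IgG input 1 (log2 fold change -0.82, edgeR adjusted p = 0.0628) or without 6-3-A6 input 5 (-0.78, edgeR adjusted p = 0.0524), the input libraries in which it was highest. All libraries of the fractions were separated for Ramp2 alone, which 4.8% of the genes tested reached.

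Set beside the endothelial markers, the 3 enriched genes lay in different places. All 18 markers were called higher, with log2 fold changes of IP over input from 3.16 to 5.42 and a median of 4.31. Ramp2 and Ramp3 lay within that range and Calcrl lay below it. Among lymphatic endothelial markers, 2 of 5 tested were called higher, namely Flt4 (log2 fold change 4.10), a growth factor receptor also found on blood vessels of tumors, and Prox1 (1.19), the transcription factor of lymphatic identity, while Pdpn was called lower (-0.52). Macrophage markers had a median of -0.85 with 7 of 11 called lower, fibroblast markers a median of -0.59 with 3 of 9 called lower, and epithelial markers a median of -0.45 with 2 of 6 called lower. Of 8 mural markers (median -0.15), Kcnj8 was called higher (3.79) and Des lower (-1.29). The medians were -1.05 for lymphoid markers (2 of 5 called lower), -1.18 for neutrophil markers (1 of 4 called lower), -0.80 for erythroid markers, -0.56 for adipocyte markers and -0.98 for the 1 Schwann cell marker tested, with 0 called in the last 3 lists. The IP libraries still held 3463 to 9121 CPM of summed macrophage markers in 6-3-A6 and 4714 to 8052 CPM in control IgG, and their part in the IP levels of Ramp1 and Calcrl was not tested.

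Within each treatment group the same 3 genes were called higher. In control IgG, where 11.4% of genes were called, 8.28% higher and 3.1% lower, the log2 fold changes of IP over input were 4.78 for Ramp2 (edgeR adjusted p = 7.04e-07), 3.30 for Ramp3 (0.00603) and 1.52 for Calcrl (0.00395), and Ramp1 was at -0.61 (0.414). With the tumor as a block, 3249 genes were called in control IgG instead of 1649. In 6-3-A6, where 26.3% of genes were called, 12.8% higher and 13.5% lower, they were 5.25 for Ramp2 (edgeR adjusted p = 1.81e-07), 3.79 for Ramp3 (0.00128), 1.57 for Calcrl (0.00182) and -1.35 for Ramp1 (0.0384). The call on Ramp1 in 6-3-A6 was lost in 6 of 20 omissions of a single library, namely input 1 or 5 or IP 1, 2, 3 or 4 of 6-3-A6 (-1.54 to -0.98 over all omissions), and without a filter on low counts (-1.26, edgeR adjusted p = 0.0692). The difference of the enrichments between the treatments was tested as an interaction. It was called for 0 of 14488 genes (0%; edgeR, 125 genes at an unadjusted p under 0.05), and for the 4 genes it was 0.47 for Ramp2 (95% confidence interval -0.79 to 1.73), 0.49 for Ramp3 (-1.61 to 2.58), 0.05 for Calcrl (-0.91 to 1.01) and -0.74 for Ramp1 (-2.10 to 0.62), each with an edgeR adjusted p of 0.99984. The intervals leave room for differences of more than 1 log2 unit in either direction for Ramp3. With the 6 tumors whose IP libraries the study kept, the interaction was 1.62 for Ramp2 (edgeR adjusted p = 0.513) and 2.28 for Ramp3 (0.609), and Ramp3 was no longer called in control IgG (1.97, 0.167).

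**Figure D3:**
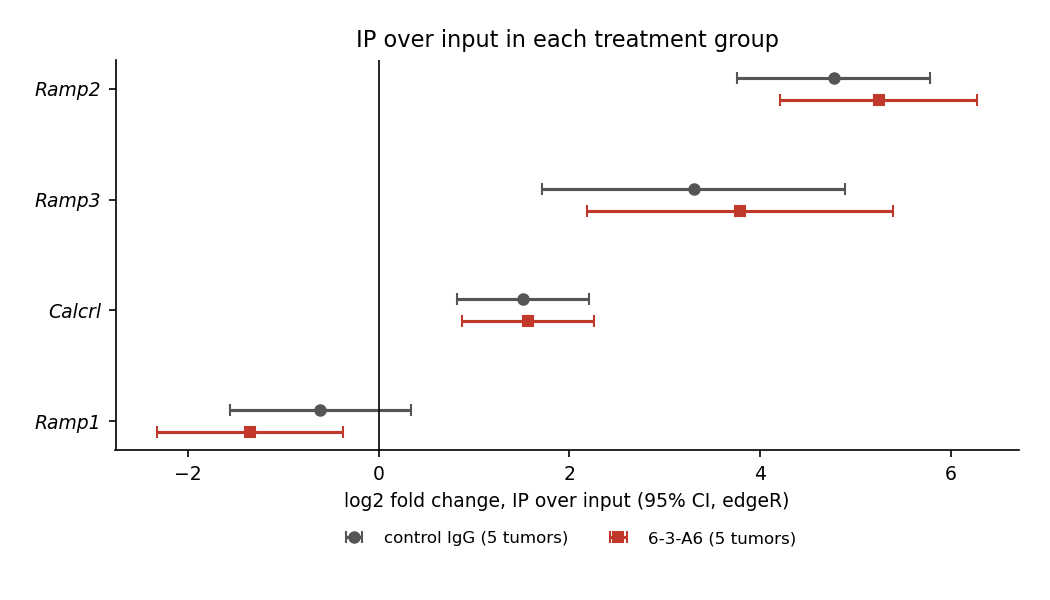
Log2 fold change of IP over input with 95% confidence intervals (edgeR, 5 tumors per group) for control IgG (gray circles) and 6-3-A6 (red squares). The intervals of the groups overlap for each gene, and the order is Ramp2, Ramp3, Calcrl, Ramp1 in both, from 4.78 to -0.61 in control IgG and from 5.25 to -1.35 in 6-3-A6.

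6-3-A6 was compared with control IgG to ask whether Notch4 blockade changed these genes in tumor endothelium. Among the 6 IP libraries that the study kept, Ramp3 and Ramp2 were higher with 6-3-A6 and were called, whereas Calcrl and Ramp1 were not called. Ramp3 was at 23.3, 5.04 and 4.98 CPM in the control IgG libraries and at 88.2, 96.0 and 31.6 CPM in the 6-3-A6 libraries. The difference of 2.67 log2 units (SE 0.60, 95% confidence interval 1.35 to 3.99, edgeR adjusted p = 0.0340) had rank 9 among 13999 genes. Ramp2 was at 113.8, 49.7 and 81.8 CPM and at 193.8, 166.7 and 230.5 CPM, a difference of 1.24 log2 units (SE 0.29, 95% confidence interval 0.61 to 1.87, edgeR adjusted p = 0.0370). Neither gene overlapped between the groups, a separation that 24.3% of the genes tested showed in this comparison, and 4.61% of all genes were called, 2.57% higher and 2.04% lower. These are 646 genes, whereas DESeq2 called 1251, edgeR without a filter 1459 and voom with quality weights 1879. Calcrl was at 0.37 (-0.11 to 0.85, edgeR adjusted p = 0.396) with groups that overlapped, and Ramp1 was at -0.87 (-1.73 to -0.00091, edgeR adjusted p = 0.256) with groups that did not.

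These calls rested on which libraries were used. Leaving out any of control IgG IP 4 or 5 or 6-3-A6 IP 1, 3 or 4 ended the call on both Ramp2 (edgeR adjusted p from 0.0684 to 0.116) and Ramp3 (0.0506 to 0.0902), with log2 fold changes of 1.01 to 1.59 for Ramp2 and 2.31 to 3.85 for Ramp3 over all 6 omissions. The count of called genes was 9 without 6-3-A6 IP 3, 161 without 6-3-A6 IP 4, 188 without control IgG IP 4 and 345 without 6-3-A6 IP 1, against 646 with all 6. Over all 10 IP libraries Ramp3 was at 0.54 (95% confidence interval -1.26 to 2.33), Ramp2 at 0.15 (-0.89 to 1.20), Calcrl at -0.07 (-0.69 to 0.55) and Ramp1 at -0.75 (-1.69 to 0.19), and 0 of 13602 genes were called (0%; edgeR, 292 genes at an unadjusted p under 0.05). The groups overlapped for each of the 4 genes, and 0.206% of genes were separated. The 4 libraries the study left out held Ramp3 at 79.9 and 46.5 CPM with control IgG and at 7.78 and 10.2 CPM with 6-3-A6, so that the order of the groups among them was the opposite of that among the libraries kept. In input, where 0 of 13683 genes were called (0%; edgeR, 180 at an unadjusted p under 0.05), the log2 fold changes of 6-3-A6 over control IgG were 0.05 for Ramp3 (-0.83 to 0.93), -0.31 for Ramp2 (-0.98 to 0.35), -0.12 for Calcrl (-0.83 to 0.60) and -0.02 for Ramp1 (-1.004 to 0.96). The groups again overlapped for each, with 0.197% of genes separated.

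**Figure D4:**
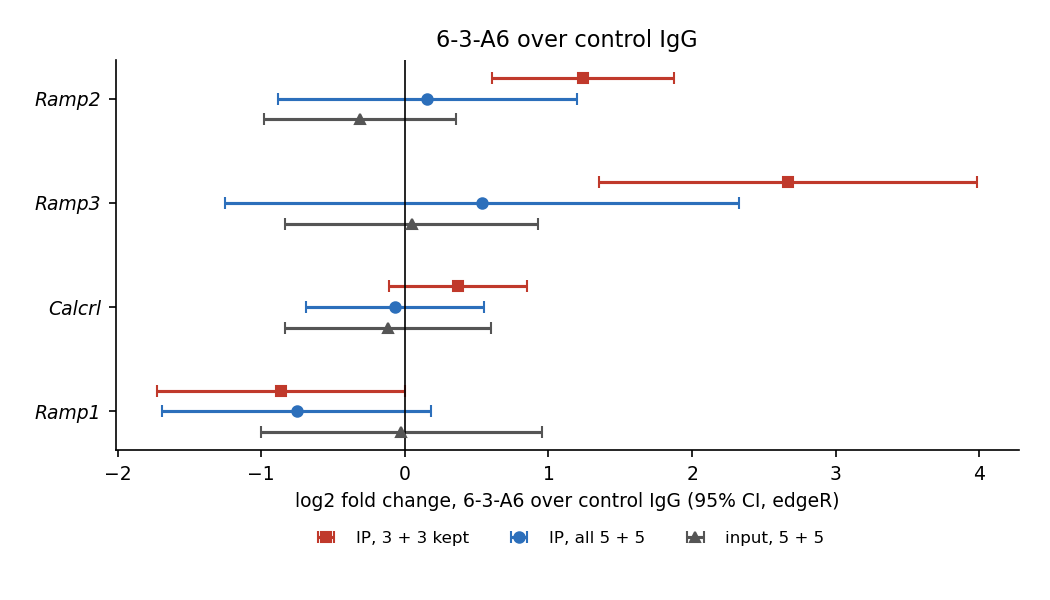
Log2 fold change of 6-3-A6 over control IgG with 95% confidence intervals (edgeR) for the 6 kept IP libraries (red squares), all 10 IP libraries (blue circles) and the 10 input libraries (gray triangles). The intervals of Ramp2 and Ramp3 lie above 0 in the libraries kept (1.24 and 2.67) and include 0 over all IP libraries (0.15 and 0.54) and in input.

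The endothelial marker level of the libraries moved with this comparison. An endothelial score, the mean log2 CPM of the 18 markers in a library, was 7.33, 5.72 and 6.55 in the control IgG IP libraries kept and 7.72, 7.55 and 7.69 in the 6-3-A6 IP libraries kept. It was 8.01 and 7.86 in the control IgG libraries left out and 5.57 and 7.32 in the 6-3-A6 libraries left out. Among the libraries kept, the markers had a median log2 fold change of 0.85 (range 0.31 to 1.99) with 5 of 18 called higher, 6 of 11 macrophage markers were called lower (median -0.96), and 3 of 4 erythroid markers tested were called higher (median 3.21), the hemoglobin genes Hbb-bs, Hba-a1 and Hba-a2. Of the other cell types, 2 of 9 fibroblast markers (median -0.95) and 2 of 6 epithelial markers (median -0.98) were called lower, and of 8 mural markers (median -0.69) Kcnj8 was called higher (2.20) and Cspg4 lower (-2.21). Adipocyte markers had a median of -1.16, lymphoid markers of -0.55, neutrophil markers of 0.20 and lymphatic endothelial markers of 0.82, with 0 called in these 4 lists. The part of these cell types in the values of Ramp2 and Ramp3 was not tested. Itgam and Alas2, markers of macrophages and of erythroid cells, were not measured, since other genes cover 99.9% of the span of Itgam and 100% of that of Alas2 and both hold 0 counts in every library. With the score in the model, the log2 fold change of 6-3-A6 over control IgG was 1.57 for Ramp3 (edgeR adjusted p = 0.640), 0.48 for Ramp2 (0.793) and -0.10 for Calcrl (0.954), and 1 gene was called. Since the scores of the groups did not overlap, treatment and endothelial content cannot be told apart in these 6 libraries.

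The level of each gene was also fitted on the endothelial score across the 10 IP libraries, with the treatment group in the model. Ramp3 rose by 1.63 log2 units per unit of the score (SE 0.32, edgeR adjusted p = 0.0142), the rank 4 among 13602 genes, of which 3.68% were called, 3.34% with a positive and 0.346% with a negative slope. Ramp2 rose by 1.06 (SE 0.10, edgeR adjusted p = 4.22e-04) and Calcrl by 0.52 (SE 0.11, edgeR adjusted p = 0.0276), and Ramp1 had a slope of -0.04 (95% confidence interval -0.60 to 0.52). For the 18 markers themselves, which make the score, the slopes were 0.69 to 1.43 with a median of 1.01. Ramp2 lay inside this range, Calcrl below it and Ramp3 above it, although the 95% confidence interval of Ramp3 (0.94 to 2.33) reached into it. The slope of Ramp3 was no longer called without 6-3-A6 IP 2 (1.84, edgeR adjusted p = 0.102), and that of Calcrl was lost without any of 6 libraries (0.40 and an edgeR adjusted p of 0.371 without 6-3-A6 IP 2). Within the 6 libraries kept, the slopes were 1.32 for Ramp3, 0.76 for Ramp2 and 0.46 for Calcrl, none of them called, in a fit that called 0 genes (edgeR, 544 at an unadjusted p under 0.05). The 501 calls of the fit over 10 libraries were 89 without 6-3-A6 IP 2 and 981 without control IgG IP 4.

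**Figure D5:**
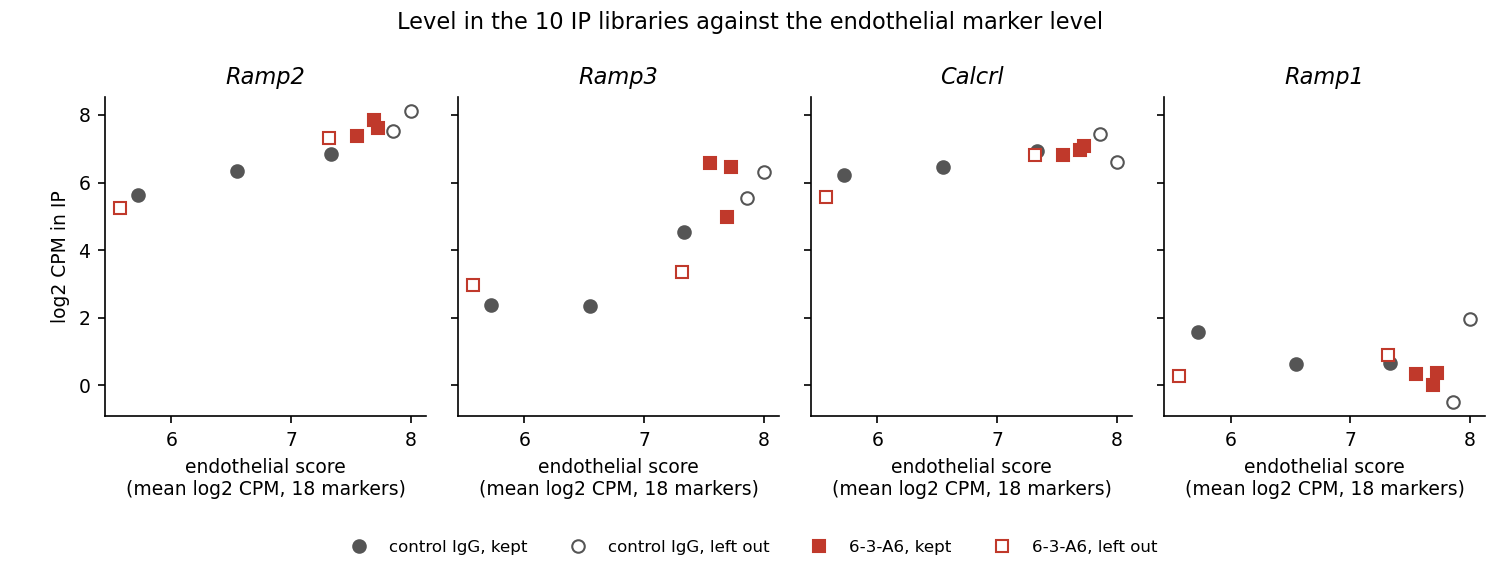
Log2 CPM of each gene in the 10 IP libraries against the endothelial score (mean log2 CPM of 18 markers), for control IgG (gray circles) and 6-3-A6 (red squares), filled where the study kept the library and open where it did not. Ramp2 and Ramp3 rise with the score (slopes 1.06 and 1.63), Calcrl rises less (0.52), Ramp1 has a slope of -0.04, and the 3 filled squares stand at higher scores than the 3 filled circles.

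Ratios of counts within a library do not depend on its depth. They were examined after the levels had been seen. In the control IgG IP libraries 1 to 5 there were 29.1, 20.4, 25.5, 10.1 and 6.09 Ramp3 counts per 100 Ramp2 counts, and in the 6-3-A6 IP libraries 1 to 5 there were 45.5, 20.4, 57.6, 13.7 and 6.42. The ratio thus varied 9.45-fold between endothelial fractions, and the groups overlapped. The log2 ratio differed by 0.47 between 6-3-A6 and control IgG over all IP libraries (exact permutation test, two-sided, p = 0.508, adjusted over 3 ratios 0.524). For Ramp3 over Calcrl the difference was 0.74 (exact permutation p = 0.429, adjusted 0.524) and for Ramp2 over Calcrl it was 0.27 (exact permutation p = 0.524, adjusted 0.524). Leaving out 1 library at a time moved these differences from 0.11 to 0.90, from 0.33 to 1.29 and from 0.089 to 0.60. In the libraries kept these differences were 1.61 (exact permutation p = 0.2), 2.52 (p = 0.1) and 0.91 (p = 0.1), where 3 against 3 libraries cannot give less than 0.1.

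The other genes of the pathway were described from lists, which were chosen with results of these data known. Of the other ligands, Adm2 (65 counts over all libraries), Calcb (24) and Calca (15), the genes of intermedin and the CGRPs, were too low to be tested, and Iapp, the gene of amylin, lies wholly within another gene and holds 0. Calcr, the calcitonin receptor that also pairs with RAMPs, had 41 counts. Ackr3, an atypical receptor that can clear adrenomedullin, was higher in IP (log2 fold change 0.47, SE 0.17, edgeR adjusted p = 0.0333), as was Gpr182, a receptor of endothelium (2.47, SE 0.33, edgeR adjusted p = 4.92e-06), while Crcp, a component of CGRP receptor signaling, was at -0.03 (edgeR adjusted p = 0.853). With 6-3-A6 in the libraries kept, Ackr3 was at 0.43 (edgeR adjusted p = 0.268), Gpr182 at 0.59 (0.497) and Crcp at 0.43 (0.243).

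Downstream of the receptor, 15 signaling genes were listed, those of Gs and cyclic AMP signaling together with the nitric oxide synthase gene Nos3. In IP 7 of the 15 were called higher and 1 lower, where 19.6% of all genes were called higher and 20.8% lower. Their median difference was 0.33 log2 units, beside -0.06 for all genes tested. The highest were Nos3, the endothelial nitric oxide synthase (5.09, edgeR adjusted p = 8.39e-09), and the adenylyl cyclase Adcy4 (3.65, edgeR adjusted p = 2.57e-08), followed by Rapgef3, a cyclic AMP-activated exchange factor (0.91), and Prkar1a, a regulatory subunit of protein kinase A (0.54). Gnas, the stimulatory G protein itself, was the gene called lower (-0.42, edgeR adjusted p = 0.0208). Of 5 genes of receptor desensitization, Arrb1, a beta-arrestin, was called higher (1.66, edgeR adjusted p = 1.79e-05), and the others lay between -0.34 and 0.11. Among genes of peptide processing and clearance, Ece1 (1.24) and Ide (0.38), which encode proteases, were called higher, Mme, which encodes neprilysin, was called lower (-0.96), and Pam, the enzyme that amidates adrenomedullin, was at -0.29 (edgeR adjusted p = 0.0890).

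In the comparison of 6-3-A6 with control IgG in the libraries kept, 2 of the 15 signaling genes and 1 of the 5 desensitization genes were called, beside 4.61% of all genes tested. Nos3 (log2 fold change 1.34, edgeR adjusted p = 0.0390) and Arrb1 (1.08, edgeR adjusted p = 0.0286) were higher, and the adenylyl cyclase Adcy7 (-1.12, edgeR adjusted p = 0.0178) was lower. The medians were 0.09 over the 15 signaling genes and 0.10 over the 5 desensitization genes, beside -0.05 over all 13999 genes tested. Over all 10 IP libraries and in input 0 genes of both lists were called (edgeR).

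Adm is a known target of hypoxia-inducible factors, and because it was not measured, a list of hypoxia factors and targets was examined in its place as a description of the same tissue. Hif1a, which lies wholly within another gene, holds 0 counts in all libraries and like Adm was not measured. In IP against input, 3 of 11 genes tested were called higher, Epas1, the endothelial hypoxia factor (log2 fold change 3.07), Ankrd37 (1.06) and Arnt (0.32), and 2 lower, Car9 (-0.92) and Vegfa (-0.53), beside 19.6% and 20.8% of all genes. With 6-3-A6 in the libraries kept, Ankrd37 (1.45, edgeR adjusted p = 0.0346) and Ndrg1 (1.21, edgeR adjusted p = 0.0385) were called higher of the 11 tested, beside 2.57% of all genes, and the median over the 11 genes was 0.84, beside 0.85 for the endothelial markers. Over all 10 IP libraries the median was 0.29 with 0 called, and in input it was 0.10 with 0 called (edgeR).

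The genes most like each member were sought by the Pearson correlation of log2 CPM over the 10 IP libraries, among 13601 other genes. For Ramp2 they were P3h4 (r = 0.99), Vwa1 (0.99) and C130074G19Rik (0.99), for Ramp3 Chst2 (0.98), Klf7 (0.97) and Lrrc58 (0.97), for Calcrl Adgrl4 (0.97), Sparcl1 (0.97) and Atp8b1 (0.97), and for Ramp1 Mgst1 (0.95), Gm47754 (0.95) and Actg2 (0.95). The lists of the members had no gene in common. Over the 10 input libraries, among 13682 other genes, the most like were Cyb561d2 (0.96) for Ramp2, Usp30 (0.98) for Ramp3, Bmt2 (0.97) for Calcrl and Spon1 (0.96) for Ramp1. All genes of a library share its depth and its endothelial content, the correlations are the highest among all genes tested, and they are given as descriptions.

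Among the members themselves, r in IP was 0.80 between Ramp2 and Ramp3, 0.80 between Ramp2 and Calcrl and 0.63 between Ramp3 and Calcrl (10 libraries). Of the genes tested in IP, 95.3% had a lower r with Ramp2 than Ramp3 had, and 95.6% a lower one than Calcrl had. For r with Ramp3, 86.9% of genes lay below Calcrl. Ramp1 had values of -0.08, -0.18 and -0.38 with Ramp2, Ramp3 and Calcrl. In input r was 0.22 between Ramp2 and Ramp3, -0.55 between Ramp2 and Calcrl and -0.22 between Ramp3 and Calcrl, and Ramp1 had values of 0.51, -0.03 and -0.62 with Ramp2, Ramp3 and Calcrl. The difference of these correlations between the fractions was not tested.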

How the data were processed

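Input and anti-HA IP libraries of 10 tumors were sequenced as single reads of 100 bases. The raw counts per gene were deposited by the authors, who aligned the reads with STAR 2.7.4a and counted them with featureCounts (the submitters' processing notes name versions 2.0.1 and 1.5.2). The methods name mm10, whereas the positions in the table are those of GRCm39. The normalized signal deposited by the authors for 6 IP libraries is the count divided by a DESeq2 size factor. It served only to identify the libraries kept, and the fold changes and p values of that table were not used.

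Counts were tested with edgeR 4.0.16 in R 4.3.3 (TMM, filterByExpr, quasi-likelihood F test, Benjamini-Hochberg over all genes tested, threshold 0.05) on code tested on simulated data. CPM values were scaled by TMM factors, with a prior count of 2 for log2 CPM. DESeq2 1.42.0 and limma 3.58.1 gave alternatives. The members, the 18 gene lists and the rule for named genes (the 5 members, the other ligands and receptors, up to 4 called genes of a list by size, and the 3 genes most correlated with each member) were chosen with earlier results of these data known. A result of the peptide processing list is not reported here. Count depth was 11881214 to 26728205 per library.

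IP and input libraries of the same number come from 1 tumor lysate, and their deviations from the group means correlated at -0.08 to 0.70 (over 0.1 in 8 of 10 tumors). Replicates are separate tumors, and each pair of libraries in a group differed by more than sampling noise (median chi-square per gene at least 2.11, where noise gives 0.455).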

Additional observations from a re-analysis of the deposited data

Results flagged for a closer look

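In 22 sets of 5 libraries, each a level or ratio within a group, the most distant library was compared with the others by Dixon's criterion, and 2 stood apart. Chance gives about 1 in 20. Ramp2 in 6-3-A6 input 5 was at 7.06 CPM, above 3.15 to 3.91 CPM in the other 4 libraries of that group. Calcrl in 6-3-A6 IP 2 was at 47.9 CPM, below 112.2 to 136.5 CPM in the other 4 libraries, and the same library had the lowest endothelial score of the IP libraries (5.57).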

How the results depend on the processing

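Leaving aside omissions of single libraries, 224 of 248 alternative values kept direction and side of the threshold or, for counts of genes, stayed within 1.5 times. Under DESeq2, RLE factors and voom with quality weights no call on a member changed. The other 24 values are given here, with the interaction for the tumors kept (1.62 for Ramp2 and 2.28 for Ramp3), and their cause was not tested unless the setting itself removes libraries. In IP against input over both groups, 3416 genes were called with the tumors kept by the study. In control IgG, 4957 were called with voom, 3249 with the tumor as replicate block and 607 with the tumors kept, where Ramp3 was at 1.97. In 6-3-A6, Ramp1 was at -1.26 without a filter (edgeR adjusted p = 0.0692), a setting that moved the median of all genes by up to 0.13. Treating IP and input of a tumor as a replicate block changed no other call. Control IgG and 6-3-A6 share only a number (r from -0.33 to 0.37), and with that number as a replicate block the input values were 0.012 for Ramp1 and -0.13 for Ramp3. No paired analysis was possible because the libraries kept share 1 number. With the endothelial score as a covariate Ramp1 in input was at 0.11. For 6-3-A6 in the libraries kept, the calls were 1251 with DESeq2, 1459 without a filter, 1879 with voom and 1 with the score as covariate, with Ramp2 at 0.48, Ramp3 at 1.57 and Calcrl at -0.10. Over all IP libraries Calcrl was at 0.020 without both libraries of lowest score, a setting chosen after seeing the data. For the slope, 1021 genes were called with DESeq2 and 2890 with voom. With settings chosen after seeing the data, Calcrl was at 0.34 with a score of endothelial minus macrophage markers (edgeR adjusted p = 0.0960), and with the libraries kept 0 genes were called, with slopes of 0.76 for Ramp2, 1.32 for Ramp3 and 0.46 for Calcrl.

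With 1 library left out at a time, where a group of 5 kept 4 and a group of 3 kept 2, the ranges were as follows. Ramp1 in IP against input was -1.16 to -0.78 over both groups, -0.95 to -0.22 in control IgG and -1.54 to -0.98 in 6-3-A6, where its call was lost in 6 of 20 omissions. Control IgG IP against input gave 1088 to 2385 calls, the lowest without control IgG IP 3. The interaction was 0.27 to 0.86 for Ramp2, 0.046 to 1.16 for Ramp3, -0.12 to 0.27 for Calcrl and -1.13 to -0.37 for Ramp1. The libraries kept gave 9 to 653 calls (9 without 6-3-A6 IP 3), with Ramp2 at 1.01 to 1.59, Ramp3 at 2.31 to 3.85, Calcrl at 0.25 to 0.63 and Ramp1 at -1.03 to -0.45. All IP libraries gave -0.045 to 0.54 for Ramp2, 0.10 to 1.20 for Ramp3, -0.18 to 0.15 for Calcrl and -0.98 to -0.41 for Ramp1. Input gave -0.38 to 0.36 for Ramp1, -0.58 to -0.20 for Ramp2, -0.20 to 0.28 for Ramp3 and -0.29 to 0.051 for Calcrl. The slope gave 89 to 981 calls (89 without 6-3-A6 IP 2), with Ramp1 at -0.42 to 0.16, Ramp3 at 1.52 to 1.84 and Calcrl at 0.40 to 0.62. Ramp1, at 11 to 108 counts per library, had the least depth behind it.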
